A study of Mus musculus with 288 samples.

Results

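The nuclear subunit genes of respiratory complex I were followed in 6 mouse tissues after intermittent hypoxia (IH). They were chosen by name alone, as rows whose symbol has the form Nduf, then a, b, c, s or v and a number, and the rule found 37 of the 35904 genes in the tables. Complex I (NADH:ubiquinone oxidoreductase) is the entry point of electrons into the mitochondrial respiratory chain. It takes electrons from NADH in its N module, passes them along iron-sulfur clusters to ubiquinone in its Q module, and pumps protons through a membrane arm. A core of conserved subunits does this chemistry, part of it encoded in mitochondrial DNA, and the accessory subunits surround the core and are needed for its assembly and stability. Tissues rich in mitochondria, such as the heart, express these genes strongly, and the complex is a site of reactive oxygen species formation when oxygen supply changes.

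Wild-type male C57BL/6J mice, 8 weeks old, were kept in normoxia or exposed to IH, in which inspired oxygen cycled between 21% and 8% during the inactive phase for 7 days. Both groups were then released into constant darkness in normoxia for 2 days, and tissues were taken on the second day, so that the IH mice were no longer in hypoxia at sampling. Lung, liver, kidney, muscle, heart and cerebellum were each sampled every 3 hours over a day (8 time points, 3 replicates at each), so that a tissue has 24 libraries of either treatment and the series holds 288. No transgene, agent or other allele entered the design, and the labels do not say what the time points are counted from or which libraries of different tissues came from 1 mouse. They do not say either what a replicate number shares across time points, so p-values over libraries measure the spread between these libraries.

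By their place in the complex, the 37 genes were the nuclear core subunits of the N module (3 genes) and Q module (4), the accessory subunits of the peripheral arm (9), of the proximal membrane arm (9) and of the distal membrane arm (10), and the NDUFA4 family (2). Ndufa4 was first described with complex I and is now regarded as a subunit of cytochrome c oxidase, and Ndufa4l2 is its paralog, a known hypoxia-inducible gene. The genes lie on 15 chromosomes, 2 of them on X, and all 37 reached a mean of 1 TPM (a level scaled to the library total and corrected for transcript length) in every tissue. Promoters were compared because the genes lie apart in the genome while their products join in 1 complex. The windows of the 3 genes with the largest falls in the lung, described below, were taken from RefSeq for GRCm38.p6, 5′ to 3′ on the strand of the gene, from 250 bases before to 50 after the start site. They are Ndufa11 (plus strand, chr17:56717512-56717811), Ndufa8 (minus strand, chr2:36049289-36049588) and Ndufb3 (plus strand, chr1:58586147-58586446). Other genes the results turn on are Ndufs1 (chr1:63143596-63176833, minus strand), Ndufb2 (chr6:39592574-39603382, plus strand), Ndufa4 (chr6:11900292-11907497, minus strand) and Ndufa4l2 (chr10:127514967-127517154, plus strand), all protein-coding in GENCODE on the same build. Below, capitals mark the NRF1 motif (GCATGCGC, read on both strands) in Ndufa11 and Ndufa8 and the CCAAT box in Ndufb3.
Ndufa11: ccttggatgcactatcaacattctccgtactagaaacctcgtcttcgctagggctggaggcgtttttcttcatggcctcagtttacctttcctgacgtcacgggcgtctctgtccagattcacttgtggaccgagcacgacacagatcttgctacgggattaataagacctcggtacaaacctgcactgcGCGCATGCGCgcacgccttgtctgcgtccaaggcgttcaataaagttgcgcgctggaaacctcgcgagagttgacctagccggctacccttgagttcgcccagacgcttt
Ndufa8: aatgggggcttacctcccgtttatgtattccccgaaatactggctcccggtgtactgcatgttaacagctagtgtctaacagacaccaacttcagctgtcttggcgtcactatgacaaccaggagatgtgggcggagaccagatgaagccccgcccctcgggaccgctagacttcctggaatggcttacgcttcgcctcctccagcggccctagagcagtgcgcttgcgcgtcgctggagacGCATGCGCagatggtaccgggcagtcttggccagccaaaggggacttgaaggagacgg
Ndufb3: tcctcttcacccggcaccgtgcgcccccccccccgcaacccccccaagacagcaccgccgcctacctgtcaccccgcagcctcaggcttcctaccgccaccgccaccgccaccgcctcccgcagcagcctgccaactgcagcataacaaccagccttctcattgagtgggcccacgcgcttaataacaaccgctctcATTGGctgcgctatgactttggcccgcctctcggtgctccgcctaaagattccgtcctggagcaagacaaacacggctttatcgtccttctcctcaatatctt

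NRF1 is a transcription factor known for its sites upstream of respiratory chain genes. Promoter windows were at hand for 32 of the 37 genes, and 3 of them (9.38%: Ndufa11, Ndufa6 and Ndufa8) held its motif, against 2.71% of all 32851 promoters. The motif of YY1 (AAGATGGCG), another regulator of housekeeping promoters, was in 5 windows (15.6%: Ndufa9, Ndufc1, Ndufs4, Ndufs6 and Ndufs7) against 1.4% of all. The ETS motif (CCGGAAG) was in 12.5% against 8.86%, and the ERR motif (AAGGTCA) in 9.38% against 4.72%. The core of the hypoxia response element (ACGTG) was in 18.8% of the windows against 19.6% of all, the E-box of the clock proteins (CACGTG, which contains that core) in 6.25% against 7.15%, and CCAAT in 31.2% against 37.4%. Both strands were searched, and these matches describe the letters in the windows only.

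Some libraries stood apart, and this bears on the comparisons below. Totals lay between 989211 and 999188 TPM, 0 libraries held the values of another, and read depth is unknown because no counts were used. The gene Gm19220 took up to 63.33% of all TPM in 1 liver library (IH, replicate 2, 13:30), where markers of heart summed to 7298 TPM and the 8 liver markers to 1489 TPM, and it took up to 45.36% in the cerebellum. All 8 markers of a tissue's own kind were detected in it, at summed levels of at least 1284 TPM in every library but 1 of the cerebellum (IH, replicate 3, 1:30), which had 309 TPM of cerebellar and 8199 TPM of heart markers. When the mean profiles of the 8 libraries with 1 replicate number were compared within a tissue, 8 of the 36 sets were nearest to a set of the other treatment. In the liver, the normoxia libraries of replicate number 3 were nearest to the IH libraries of number 3, at a root mean square log2 difference of 0.178 over genes, and lay 0.422 and 0.473 from the other normoxia sets. In the cerebellum, the normoxia libraries of number 3 lay 0.224 from the nearest IH set and 0.402 and 0.501 from the other normoxia sets. In the lung, the IH libraries of number 3 lay nearest to a normoxia set, at 0.375, and lay 0.414 and 0.435 from the other IH sets. Results below are therefore given within replicate numbers as well, and what sets these libraries apart was not tested.

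In normoxia, the subunit genes were highest in the heart and lowest in the lung. The median of the 37 mean levels was 574.82 TPM in the heart, 478.22 in the cerebellum, 434.91 in the muscle, 391.22 in the kidney, 187.72 in the liver and 115.8 in the lung. The heart had the highest level of 19 members and the cerebellum of 12, while the lung had the lowest level of 34. Between the tissues with the highest and the lowest level, the members differed 4.59-fold at the median, from 2.15-fold in Ndufa7, an accessory subunit of the peripheral arm, to 19.88-fold in Ndufa4l2. Among libraries of 1 tissue, the median coefficient of variation of the members in normoxia was between 8.2% in the lung and 18.1% in the cerebellum.

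**Figure D1:**
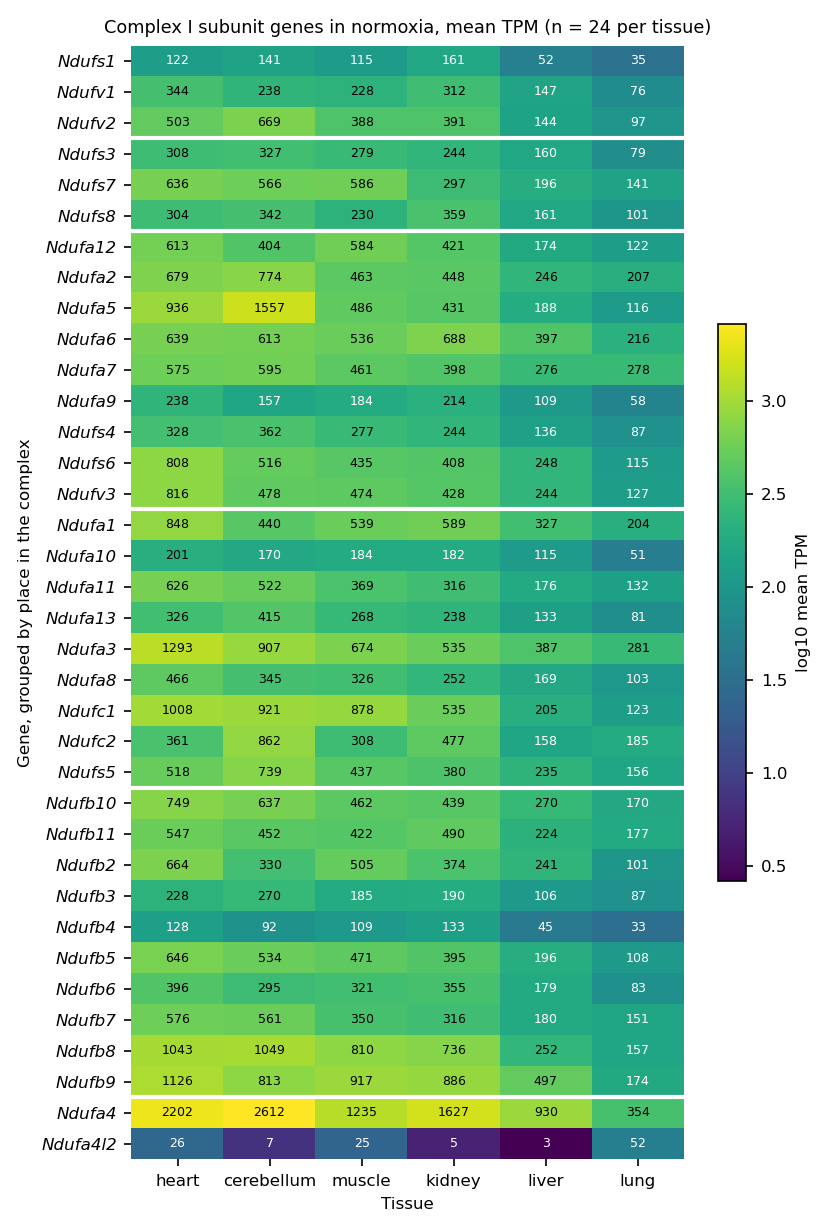
Mean TPM of 36 of the genes in normoxia (rows, grouped by place in the complex; n = 24 libraries per tissue) as colour on a log10 scale, by tissue. The lung and liver columns are the darkest (lowest) for nearly every gene, with medians over all 37 of 115.8 and 187.72 TPM, and Ndufa4l2 is the row that departs, with its highest level in the lung.

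The core subunits kept to this order with exceptions. Ndufs1, the iron-sulfur subunit of the N module, was highest in the kidney (161 ± 24.6 TPM, mean ± SD, n = 24), with 141 ± 29.1 in the cerebellum, 122 ± 23.6 in the heart, 115 ± 17.6 in the muscle, 52.4 ± 8.23 in the liver and 35.0 ± 2.50 in the lung. It was the lowest of the 3 N module genes in all 6 tissues. Ndufv1, which binds NADH, and Ndufv2, its partner, reached 344 ± 66.3 and 503 ± 61.6 TPM in the heart and 75.5 ± 4.09 and 97.2 ± 9.16 TPM in the lung. Of the Q module, where electrons reach ubiquinone, Ndufs3 ranged from 79.4 ± 6.19 TPM in the lung to 327 ± 55.7 in the cerebellum, Ndufs7 from 141 ± 12.2 in the lung to 636 ± 85.7 in the heart, and Ndufs8 from 101 ± 8.80 in the lung to 359 ± 46.0 in the kidney. In TPM as deposited, the cerebellum departed most in 2 accessory subunits. Ndufa5 had 1557 ± 518 TPM there against 936 ± 267 in the heart, and Ndufc2, of the proximal membrane arm, 862 ± 144.2 TPM against 361 ± 63.8. In the scaled limma fit described below, neither was called between these tissues. The log2 difference of heart from cerebellum was 0.21 ± 0.12 for Ndufa5 (adjusted p = 0.105). For Ndufc2 it was -0.36 ± 0.08 (adjusted p = 1.99e-05), short of the fold threshold.

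The NDUFA4 family split by tissue. Ndufa4 was the most abundant member in every tissue in normoxia. In TPM as deposited it was highest in the cerebellum (2612 ± 527 TPM) and then the heart (2202 ± 281). The kidney followed with 1627 ± 279, the muscle with 1235 ± 205, the liver with 930 ± 137 and the lung with 354 ± 53.1. In the scaled limma fit described below, it was higher in the heart than in the cerebellum (log2 difference 0.67 ± 0.10, adjusted p = 1.37e-09). Kidney and liver were not called different in that fit (-0.0027 ± 0.10, adjusted p = 0.982). Ndufa4l2 ran the other way in the lung, where it was highest, with a lowest, median and highest library of 31.1, 52.9 and 62.9 TPM. It had a mean of 26.3 ± 6.45 TPM in the heart and 24.8 ± 4.47 in the muscle, whose ranges overlap, and 7.15 ± 2.19 in the cerebellum, 5.24 ± 0.764 in the kidney and 2.62 ± 0.727 in the liver. Per library, Ndufa4l2 stood at 15.05 ± 2.90% of Ndufa4 in the lung in normoxia, and at between 0.287% (liver) and 2.08% (muscle) in the other tissues.

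**Figure D2:**
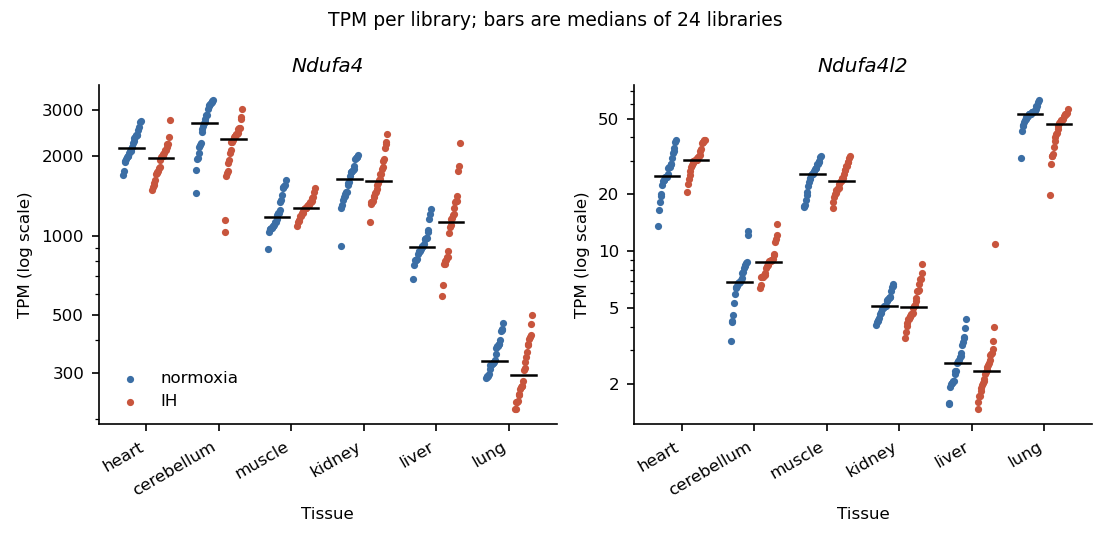
TPM of Ndufa4 (left) and Ndufa4l2 (right) in every library on log axes, by tissue and treatment, with bars at the median of 24 libraries. Ndufa4l2 is highest in the lung, at a median of 52.9 TPM in normoxia and 46.9 after IH, where Ndufa4 is lowest.

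Neighbours in the order of levels were tested in 1 limma fit over the normoxia libraries of all 6 tissues, after scaling each library by the median of ratios. A gene was called where it differed at least 1.5-fold with a Benjamini-Hochberg adjusted p of at most 0.05. Between the heart and the cerebellum, 32 members were higher and 0 lower in the heart (median log2 difference 1.08), where 30.8% of all genes were higher and 30.2% lower. Between the cerebellum and the muscle, 2 members (Ndufa5 and Ndufc2) were higher and 11 lower in the cerebellum (median -0.38), against 31.6% and 31.7% of all genes. The muscle was above the kidney in 5 members and below it in 0 (median 0.32), against 26.9% and 27.1% of all genes. The kidney was above the liver in 5 members and below it in 0 (median 0.04), against 25.8% and 22.4%. The liver was above the lung in 36 members and below it in 1, Ndufa4l2 at -2.70 ± 0.10 (SE), with a median of 2.18, against 31.5% and 33.5% of all genes.

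The counts between tissues depended on the scaling. In TPM as deposited, all genes tested shifted by a median log2 of -0.75 between the heart and the cerebellum, 0.46 between the cerebellum and the muscle, -0.12 between the muscle and the kidney, 0.64 between the kidney and the liver and -1.25 between the liver and the lung. The members called higher and lower in the tissue named first were then 7 and 2, 8 and 2, 3 and 2, 34 and 0, and 23 and 1, in that order of pairs, against 16.4% and 55.2%, 46.3% and 21.4%, 23.3% and 31.6%, 52.7% and 10.4%, and 11.2% and 69.1% of all genes. Relative to the median of all genes, the members' median difference was 0.94 in TPM as deposited and 1.09 after scaling for the heart against the cerebellum, -0.27 and -0.40 for the cerebellum against the muscle, 0.26 and 0.31 for the muscle against the kidney, 0.21 and 0.03 for the kidney against the liver, and 1.92 and 2.20 for the liver against the lung. Relative to that median, the direction was the same on both scales for each pair. Not set against it, the members' median for the cerebellum against the muscle was 0.19 in TPM as deposited and -0.38 after scaling. The order of tissues given above is that of TPM as deposited.

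After IH, the subunit genes fell together in the lung. There, 35 of 37 members were lower and 0 higher in IH than in normoxia (limma on log2 scaled TPM plus 0.5, 24 libraries against 24, Benjamini-Hochberg adjusted p of 0.05), with a median log2 change of -0.39. Of all 15426 genes tested in the lung 41.5% were lower and 28.9% higher, and their median change was -0.08. In bulk tissue, fewer cells of a type and less RNA per cell cannot be told apart. Called members by place were all 3 of the N module core, all 4 of the Q module core, all 9 of the accessory peripheral arm, all 9 of the proximal membrane arm, 8 of 10 of the distal membrane arm and both of the NDUFA4 family. The members not called, Ndufb4 and Ndufb2, had log2 changes of -0.25 ± 0.12 (adjusted p = 0.0542) and -0.15 ± 0.07 (adjusted p = 0.0521).

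**Figure D3:**
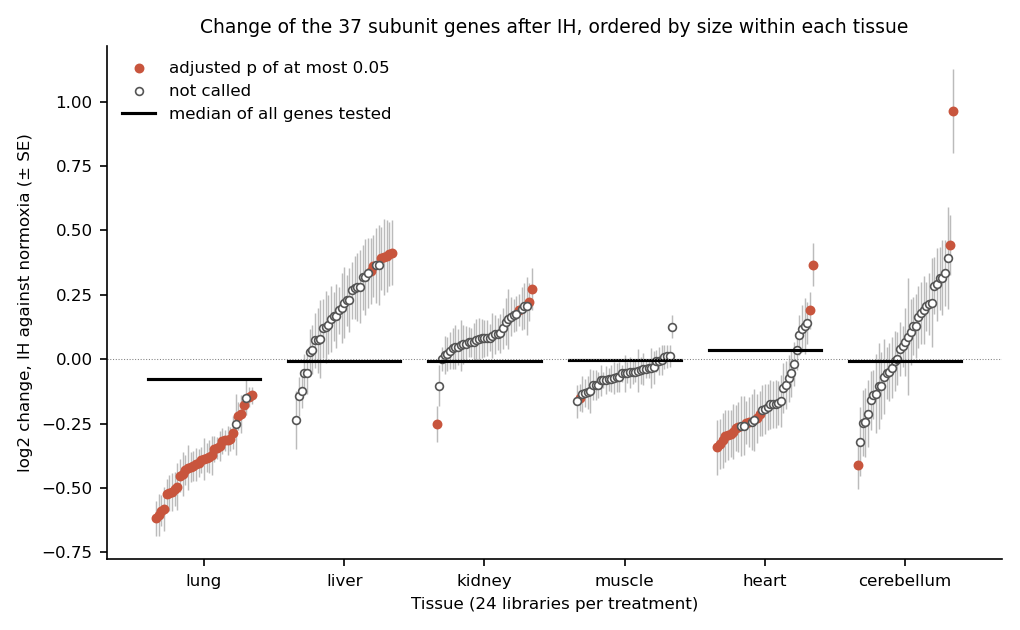
Log2 change after IH (y axis, ± SE from limma, 24 libraries per treatment) of each of the 37 genes, ordered by size within each tissue; filled points have an adjusted p of at most 0.05 and black lines mark the median of all genes tested. In the lung every point lies below the black line at -0.08, while in the liver most points lie above it.

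The largest falls were in the membrane arm. Ndufa11, an accessory subunit at the junction of the membrane arm, had 118.8, 131.3 and 149.7 TPM as its lowest, median and highest normoxia library and 61.3, 109.0 and 129.4 TPM in IH. The IH median lay below every normoxia library, though the ranges overlap. Its log2 change was -0.62 ± 0.07 (adjusted p = 7.73e-11). Ndufb3, of the distal membrane arm, had 67.7, 80.5 and 132.5 TPM in normoxia and 51.1, 69.3 and 96.04 TPM in IH. The ranges overlap, and its change was -0.60 ± 0.08 (adjusted p = 8.23e-09). Ndufa8, a twin-cysteine subunit on the intermembrane side, had 95.4, 101.96 and 112.3 TPM in normoxia and 51.6, 86.1 and 104.4 TPM in IH, and its change was -0.59 ± 0.06 (adjusted p = 8.46e-12). These 3 genes passed a 1.5-fold change, as 13.51% of all genes did in either direction. Ndufa4l2 fell by 0.58 ± 0.09 on the log2 scale (adjusted p = 6.20e-08), with 19.8, 46.9 and 56.7 TPM in IH, and Ndufa4 by 0.49 ± 0.09 (adjusted p = 4.87e-06). The ratio of Ndufa4l2 to Ndufa4 in the lung was 14.9 ± 5.68% in IH.

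Falls of the core subunits in the lung were smaller and spread over a range. In the N module Ndufv2 changed by -0.41 ± 0.06, Ndufs1 by -0.15 ± 0.04 and Ndufv1 by -0.14 ± 0.03. In the Q module Ndufs7 changed by -0.42 ± 0.06, Ndufs8 by -0.32 ± 0.04 and Ndufs3 by -0.18 ± 0.04. Over these genes the adjusted p-values ran from 4.14e-09 for Ndufs8 to 0.000981 for Ndufs1. The direction of the smallest depended on the scale. On the deposited TPM scale, where all genes tested rose by a median of 0.21 and 55% were called higher and 10.7% lower, Ndufs1, Ndufs3 and Ndufv1 were called higher (0.15, 0.12 and 0.16) and 13 members lower, with a member median of -0.08. Relative to the median of all genes, the members' median was -0.31 after scaling and -0.29 in TPM as deposited, and all 37 lay below that median on both scales.

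The fall in the lung was even over time points and uneven over replicate numbers. On the scaled values 35 members were lower in IH at all 8 time points, and 26 of 37 were lower within all 3 replicate numbers. No share of all genes is given for either count. Each time point holds the same 3 replicate numbers, so the time points are not a check apart from them. Within number 1, where 66.3% of all genes were called in either direction, 12 members were called lower and 1 higher. Their median there, -0.10, was close to that of all genes, -0.09. Within number 2 the member median was -0.46 with 33 lower, against -0.09 and 50.8% of all genes called, and within number 3 it was -0.62 with 36 lower, against -0.03 and 59.2%. For Ndufa11 the changes were -0.43, -0.85 and -0.61, and for Ndufb3 -0.22, -0.74 and -0.89, while Ndufa4 changed by 0.03, -0.51 and -1.03. When the 8 libraries of each replicate number were averaged first, so that 3 values stood against 3, 19 members were called lower, against 17.6% of all genes.

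Markers of other cell types moved in the lung as well. All 8 lung markers and all 4 endothelial markers were called lower after IH, the lung markers from a median sum of 172052 TPM (range 137255 to 265417) to 149063 TPM (35274 to 206699) and the endothelial ones from 900 TPM (358 to 1234) to 783 TPM (439 to 1010). Of the heart markers, 5 of 8 were called higher, from 415 TPM (237 to 919) to 754 TPM (349 to 1097). The fall of the lung markers was in numbers 1 and 2, where they went from 170647 to 83794 TPM and from 167124 to 112261 TPM, while in number 3, where the fall of the subunits was largest, they went from 178157 to 182590 TPM. Endothelial markers went from 1022 to 535 TPM, from 880 to 633 TPM and, in number 3, from 767 to 907 TPM. More genes were detected in IH libraries (25455 ± 1529, against 22694 ± 737 in normoxia). With that number as a term 32 members were lower and 0 higher, against 25.1% and 27.4% of all genes. The member median was then -0.57. The part of these markers in the fall of the subunits was not tested.

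Genes that build or partner complex I were mixed in the lung. Of 18 assembly factors, which put the complex together and are not part of it, 11 were lower and 3 higher, where 41.5% of all genes were lower and 28.9% higher. The lower ones included Dmac1 (-0.58 ± 0.06), Ndufaf3 (-0.43 ± 0.06) and Ndufaf8 (-0.40 ± 0.07). Dmac2 (0.48 ± 0.10), Nubpl (0.27 ± 0.06), which delivers iron-sulfur clusters, and Foxred1 (0.20 ± 0.04) were higher. Of the 7 subunits encoded in mitochondrial DNA, mt-Nd1 (-0.32 ± 0.08), mt-Nd2 (-0.22 ± 0.07) and mt-Nd3 (-0.49 ± 0.12) were lower and 4 were not called. Both nuclear subunits outside the naming rule were lower, Ndufab1, the mitochondrial acyl carrier protein, by -0.44 ± 0.06 and Ndufb1-ps by -0.39 ± 0.11. All 4 subunits of complex II, the other entry point of electrons, were lower as well, from -0.30 ± 0.04 in Sdhb to -0.58 ± 0.08 in Sdhc.

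The heart showed a smaller fall of accessory subunits and a rise of Ndufs1. In all, 13 members were lower and 2 higher, with a median of -0.19, where 17.3% of all genes were lower and 28% higher. The lower members were 4 of 9 in the peripheral arm, 4 of 9 in the proximal and 4 of 10 in the distal membrane arm, and Ndufa4. The largest falls were those of Ndufs6 (-0.34 ± 0.11, adjusted p = 0.00745), Ndufa1 (-0.33 ± 0.10, adjusted p = 0.00528) and Ndufa4 (-0.32 ± 0.11, adjusted p = 0.0153). Ndufs6, a zinc-binding subunit of the peripheral arm, had 568, 772 and 1173 TPM in normoxia and 587, 684 and 877 TPM in IH, so that the ranges overlap. Of the core, 0 of 7 members were lower. Ndufs1 rose by 0.37 ± 0.08 (adjusted p = 0.000446), from 94.5, 114.2 and 182.9 TPM to 98.1, 171.7 and 241.1 TPM, and was higher in IH at all 8 time points and within all 3 replicate numbers (0.30, 0.27 and 0.57). Ndufa10, an accessory subunit of the proximal membrane arm, rose by 0.19 ± 0.07 (adjusted p = 0.0275).

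The heart's falls rested on 1 replicate number. The member median was -0.47 within number 1, where 26 members were called lower and 38% of all genes were called in either direction. It was -0.08 and 0.03 within numbers 2 and 3, where 10.9% and 5.05% of all genes were called, 0 members were called by limma and 3 and 2 had an unadjusted p under 0.05. Without number 1, 1 member was called higher and 0 lower, against 15.8% and 8.15% of all genes. Without scaling, where 37.5% of all genes were higher and 6.39% lower, 7 members were higher and 10 lower, and relative to the median of all genes the members' median was -0.22, against -0.23 after scaling. Fewer genes were detected in IH libraries (21447 ± 688, against 25124 ± 1719). With that number as a term 0 members were called, against 0.884% of all genes higher and 1.13% lower. Endothelial markers were called higher in 4 of 4 (median sums of 148 TPM, range 96.1 to 244, and 226 TPM, 163 to 304), and white fat markers went from 169 TPM (19.2 to 1235) to 330 TPM (18.9 to 1037) with 0 of 4 called. Their part in the result was not tested. Past a 1.5-fold change were 0 members and 2.95% of all genes. Assembly factors were 3 higher and 4 lower of 18 in the heart, mt-Nd3 (-0.34 ± 0.13) and mt-Nd6 (-0.30 ± 0.11) were lower, and Sdha, the flavoprotein of complex II, was higher (0.35 ± 0.08).

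The liver moved the other way, in a set of distal membrane arm subunits. There 7 members were higher and 0 lower, with a median of 0.22, where 10.9% of all genes were higher and 13.3% lower. They were Ndufb9 (0.41 ± 0.13, adjusted p = 0.0139), Ndufb8 (0.41 ± 0.13, adjusted p = 0.0144), Ndufb6 (0.40 ± 0.14, adjusted p = 0.0313), Ndufb4 and Ndufb5 of the distal arm, the core subunit Ndufv2 (0.39 ± 0.12, adjusted p = 0.0156) and Ndufs4, a peripheral subunit added late in assembly. Ndufb9 had 423, 488 and 599 TPM in normoxia and 333, 623 and 1106 TPM in IH. The spread was wider after IH for the members as a whole, with a median coefficient of variation of 23.0% against 12.4%. The other 6 core subunits were not called, with values between -0.24 ± 0.11 in Ndufs1 and 0.17 ± 0.09 in Ndufs8. None of the 37 passed a 1.5-fold change in limma (0, with 18 at an unadjusted p under 0.05), and 3.66% of all genes did.

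In the liver the rise was in replicate numbers 1 and 2. Member medians were 0.26, 0.30 and 0.06 within numbers 1, 2 and 3. Within number 3, where 0.00872% of all genes were called, 0 members were called and 3 had an unadjusted p under 0.05. Ndufb9 had means of 765 and 662 TPM in the IH libraries of numbers 1 and 2 and 456 TPM in those of number 3, against 524, 486 and 479 TPM in normoxia, and its changes were 0.66, 0.54 and 0.01. Ndufb8 changed by 0.56, 0.64 and -0.01. Without number 3, 21 members were higher and 2 lower, against 19.1% and 22.2% of all genes. Without number 1, 0 were called, against 0.411% of all genes higher and 0.551% lower. Without number 2, 0 were called, against 0.822% and 1.29%. Without the liver IH library of replicate 2 at 13:30, 7 were higher and 3 lower, against 13.7% and 15.3% of all genes.

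Transcripts of other tissues moved with the liver's treatment and replicate numbers. Kidney markers were called higher in 3 of the 3 that could be tested, from a median sum of 3.78 TPM (0.808 to 114) in normoxia to 83.7 TPM (38.7 to 413) in IH, and heart markers in 7 of 8 (13.54 TPM, 5.35 to 57.9, and 37.7 TPM, 25.4 to 7298). By replicate number, kidney markers summed to 2.7, 3.8 and 101.6 TPM in normoxia and 91.8, 87.0 and 71.9 TPM in IH. Liver markers were lower in 4 of 8, from 72503 TPM (64742 to 100322) to 52740 TPM (1489 to 80466), and by number the IH libraries had 47491, 50206 and 74837 TPM. Their part in the rise was not tested. Without scaling, where 3.6% of all genes were higher and 18.2% lower, 4 members were higher and 5 lower, and relative to all genes the median was 0.21, against 0.23 after scaling. Of the assembly factors 5 were higher and 1 lower, and mt-Nd2 (0.27 ± 0.09) and mt-Nd5 (0.51 ± 0.15) were higher. The 4 subunits of complex II were not called, with values from -0.23 to 0.21.

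In the kidney 3 members were higher and 1 lower, with a median of 0.08, against 8.25% and 11.5% of all genes. Ndufa13 (0.27 ± 0.08, adjusted p = 0.0138), also known as the cell death regulator GRIM-19, Ndufa7 (0.22 ± 0.07, adjusted p = 0.0245) and Ndufa11 (0.19 ± 0.06, adjusted p = 0.0266) rose, and Ndufs1 fell by 0.25 ± 0.07 (adjusted p = 0.00952). Ndufs1 had 89.4, 165 and 187 TPM in normoxia and 81.3, 133 and 197 TPM in IH, lower at all 8 time points, and its changes within replicate numbers were -0.05, -0.48 and -0.23. The member median was 0.10, 0.35 and -0.14 within numbers 1, 2 and 3, so the sign of the median differed between numbers. In number 2, 19 members were called higher and 1 lower, where 19.4% of all genes were called in either direction. In number 3, 8 members were called lower and 0 higher, against 14.5% and 13.8% of all genes. Without number 3, 17 were called, all higher, against 6.97% of all genes higher. Without number 2, 0 were called, against 11.5% of all genes higher and 8.13% lower. None of 37 passed 1.5-fold (0, with 9 at an unadjusted p under 0.05 in limma), and 0.783% of all genes did.

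In the muscle 1 member was lower and 0 higher, with a median of -0.05, against 4.89% and 5.48% of all genes. It was Ndufa11 (-0.15 ± 0.05, adjusted p = 0.0499), with 252, 375 and 422 TPM in normoxia and 283, 361 and 419 TPM in IH. Its changes by replicate number were 0.08, -0.27 and -0.25, and the member median was 0.15, -0.15 and -0.18, with 9 members called higher in number 1, 1 lower in number 2 and 13 lower in number 3, where 4.25%, 5.09% and 8.27% of all genes were called in either direction. Without number 1, 11 members were lower, against 5.77% of all genes. Without number 2, 0 were called, against 1.84% of all genes higher and 0.795% lower. With a term pairing libraries by replicate number, 2 were lower and 0 higher, against 6.7% and 6.93% of all genes. In TPM as deposited 14.5% of all genes were higher and 0.632% lower, and 1 member was higher and 0 lower. Past 1.5-fold were 0 members, with 5 at an unadjusted p under 0.05 in limma, and 0.374% of all genes.

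In the cerebellum single members moved far while the median of the group stayed near 0. Of 37 members, 2 were higher and 1 lower, with a median of 0.07, against 9.76% and 5.24% of all genes. Ndufb2, of the distal membrane arm, had 148.5, 278.5 and 596.5 TPM in normoxia and 285.3, 622.0 and 828.1 TPM in IH, a log2 change of 0.96 ± 0.16 (adjusted p = 5e-05). It was the only member past 1.5-fold there, as were 2.64% of all genes. Ndufv1 rose by 0.44 ± 0.12 (adjusted p = 0.00669), from 125.1, 226.7 and 398.2 TPM to 199.6, 310.9 and 538.9 TPM. Its neighbour in the N module, Ndufs1, fell by 0.41 ± 0.09 (adjusted p = 0.0016), from 90.5, 143.8 and 183.6 TPM to 60.7, 110.7 and 134.6 TPM. All 3 had the same direction at all 8 time points, and their ranges overlap.

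These cerebellar changes followed the replicate numbers closely. Ndufb2 averaged 206.5, 274.5 and 510.5 TPM in the normoxia libraries of numbers 1, 2 and 3 and 617.3, 611.0 and 594.5 TPM in the IH libraries. Its changes were 1.53, 1.07 and 0.30. For Ndufs1 the normoxia means were 157.2, 152.2 and 114.0 TPM and the IH means 97.8, 103.8 and 115.2 TPM, with changes of -0.72, -0.64 and 0.13. In both genes the normoxia libraries of number 3 lay near the IH libraries. Within number 3, 0% of all genes and 0 members were called by limma, with 1 member at an unadjusted p under 0.05. Without number 3, 3 members were higher and 3 lower, against 18.8% and 16.2% of all genes. Without number 1, 2 were higher and 0 lower, against 1.04% and 0.158%, and without number 2, 0 were called, against 0.241% and 0.0802%. Without the library at 1:30 that stood apart, 2 were higher and 1 lower, against 14.3% and 10.1% of all genes. Markers of heart were present in the cerebellum libraries (median sums of 884 TPM in normoxia, range 79.7 to 3631, and 514 TPM in IH, 59.2 to 8199), and by number they summed to 1657, 941 and 282 TPM in normoxia and 382, 363 and 726 TPM in IH. Of the 8, 0 were called, and their part in the result was not tested. Ndufaf8, an assembly factor, rose by 0.81 ± 0.15, as did Ecsit, Foxred1 and Tmem70 by smaller amounts.

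**Figure D4:**
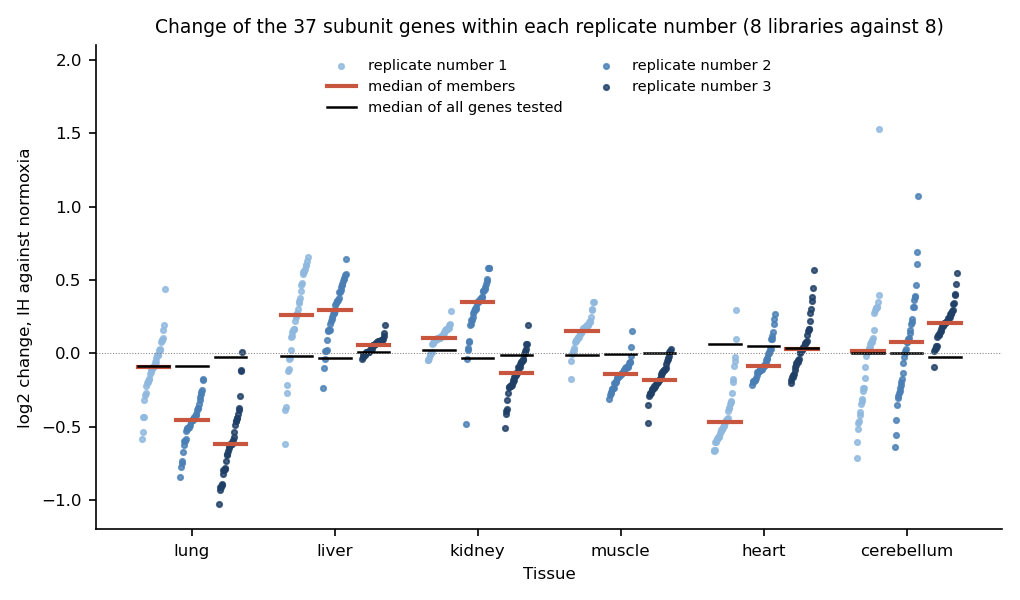
Log2 change after IH (y axis) of each of the 37 genes within replicate numbers 1, 2 and 3 (8 libraries against 8), by tissue, with red bars at the median of the members and black bars at that of all genes tested. In the lung the 3 medians are -0.10, -0.46 and -0.62, while in the kidney, muscle and heart they lie on both sides of 0.

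When each replicate number was averaged first in the other 5 tissues, 0 members were called by limma in any of them. Over all libraries and after scaling, Ndufs1 was called in 4 tissues, lower in the lung, kidney and cerebellum and higher in the heart. Its change in the lung differed from that in the heart (-0.57 ± 0.10, adjusted p = 1.01e-06 for the interaction in limma). In the lung it lay -0.07 from the median of all genes after scaling, and in TPM as deposited it was called higher (0.15). In the cerebellum it was not lower within replicate number 3.

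Whether the fall in the lung differed from the change elsewhere was tested as an interaction of tissue and treatment. The fit treated libraries of the tissues as independent, which they are not if 1 mouse gave both. Against the liver, the change in the lung was lower for 34 members and higher for 0 (median difference -0.76), where 41.8% of all genes tested were lower and 14.4% higher. It was lower than in the kidney for 36 members (median -0.54, against 44.5% of all genes lower and 20% higher), lower than in the muscle for 34 (median -0.39, against 41.6% and 17.3%) and lower than in the cerebellum for 28 (median -0.59, against 38% and 15.4%). Against the heart it was lower for 18 members (median -0.26), a share close to that of all genes, of which 48% were lower and 19% higher (median -0.20). For Ndufa11 the lung differed from all 5 tissues, by between -0.43 ± 0.13 (heart) and -0.94 ± 0.16 (liver). For Ndufb4 the lung and the heart differed by -0.01 ± 0.16 (adjusted p = 0.969).

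The difference from the heart depended on the replicate numbers. Without number 1 it was called for 35 members, all lower in the lung, where 42.6% of all genes were lower. Without number 2 it was called for 7, all lower, against 40.7%, and without number 3 for 9 lower and 1 higher, against 48.9% and 21.2%. In TPM as deposited, where the difference of all genes was positive in every pair, the members called higher and lower in the lung were 5 and 19 against the liver, 1 and 11 against the kidney, 1 and 12 against the muscle, 2 and 8 against the heart, and 3 and 15 against the cerebellum. Of all genes, 47.7% were higher and 3.91% lower against the liver, and 50.2% and 8.07% against the kidney. The shares were 34.2% and 11% against the muscle, 29% and 21.7% against the heart, and 35.8% and 6.86% against the cerebellum.

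By the main fit, few members had a 24-hour rhythm. In normoxia, a cosine fit (limma F test, Benjamini-Hochberg adjusted p of 0.05) called 2 members in the kidney and 0 elsewhere. In IH it called Ndufa4l2 in the muscle and 0 elsewhere. Members with an unadjusted p under 0.05 numbered 13 in kidney normoxia, 4 in cerebellum normoxia, 3 in liver IH, 2 each in lung normoxia, lung IH and muscle IH, and 0 in the other 6 sets. No share of all genes at that p is given for this fit, so these counts are not read as a result about the members. On a linear scale, members with an unadjusted p under 0.05 numbered 11 in kidney normoxia (27.9% of all genes), 5 in cerebellum normoxia (17.9%) and 8 in liver IH (20.7%). They numbered 4 in lung normoxia (17.5%), 1 in lung IH (20.9%) and 2 in muscle IH (26.2%). At an adjusted p of 0.05, the share of all genes called in normoxia was 11.2% in the kidney, 5.73% in the liver, 5.7% in the muscle, 4.09% in the lung, 1.57% in the heart and 0.00672% in the cerebellum. In IH it was 10%, 7.52%, 12%, 8.56%, 2.28% and 0.0403%, in the same order. The clock gene Dbp was rhythmic in the lung, liver, kidney, muscle and heart of both treatments, with log2 amplitudes between 1.62 and 3.04, and in the cerebellum in IH.

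The members rhythmic in the kidney by the cosine fit were Ndufb10, of the distal membrane arm, and Ndufa6, of the peripheral arm. A rank test called Ndufb10 (adjusted p = 0.0305) and did not call Ndufa6 (adjusted p = 0.104). It also called Ndufa1, Ndufa3, Ndufa13, Ndufb2, Ndufb9, Ndufs5 and Ndufs6, which the cosine fit did not. Their adjusted p-values in the rank test ran from 0.0167 in Ndufa3 to 0.0478 in Ndufa1 and Ndufs6. The share of all genes called by the rank test is not given. Gm19220 took more than 10% of all TPM in 4 of the 24 kidney normoxia libraries, at 1:30 (36.28% and 28.06%), 4:30 (22.78%) and 7:30 (11.35%), which lowers the deposited TPM of other genes there, so the values that follow are scaled as in the fit. Ndufb10 averaged 413 ± 62.2 scaled TPM at 1:30, 382 ± 42.8 at 4:30, 346 ± 34.6 at 7:30 and 523 ± 1.6 at 16:30 (SD, n = 3), with means between 440 and 453 at the other 4 time points. Its fitted peak was at 17.20 hours with a log2 amplitude of 0.20 (adjusted p = 0.0318). Ndufa6 went from 554 ± 105 scaled TPM at 7:30 to 775 ± 36.7 at 16:30, with a peak at 16.47 hours and an amplitude of 0.23 (adjusted p = 0.0455). In IH the fitted amplitudes were 0.05 and 0.06, with adjusted p-values of 0.853 and 0.858. The difference of rhythm between treatments was not called for either gene (adjusted p = 0.981 for both). Without the 4 normoxia and 5 IH kidney libraries in which Gm19220 passed 10%, 5 members were rhythmic in normoxia, against 13% of all genes, with amplitudes of 0.26 for Ndufb10 (adjusted p = 0.0209) and 0.32 for Ndufa6 (adjusted p = 0.0211). Ndufa4l2 in the muscle in IH was highest at 1:30 (30.0 ± 2.7 TPM) and lowest at 16:30 (19.1 ± 1.9 TPM), with an amplitude of 0.20 (adjusted p = 0.00766).

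**Figure D5:**
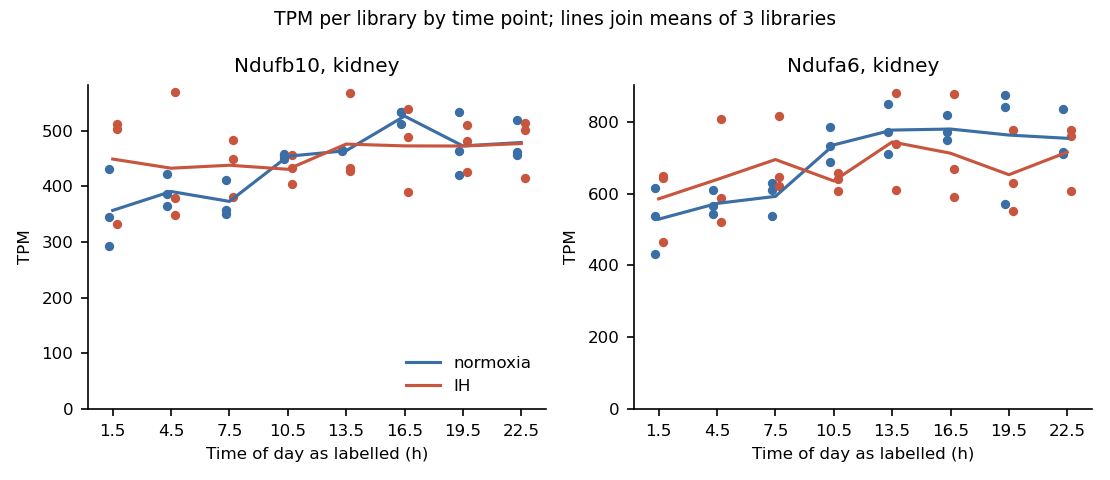
Deposited, unscaled TPM in the kidney (y axis from 0) by labelled time of day (x axis, hours) for the members rhythmic by the cosine fit, with 1 point per library, 3 per time and treatment, and lines through the means. In normoxia Ndufb10 goes from 357 TPM at 1:30 to 526 TPM at 16:30, while the IH line stays between 431 and 477 TPM, and the normoxia points from 1:30 to 7:30 include the libraries rich in Gm19220.

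With a term for replicate number within treatment, more members and more of all genes were called. They were 11 members in kidney normoxia, with peaks between 16.16 and 18.07 hours (18.2% of all genes), 12 in liver IH, with peaks between 11.7 and 13.03 hours (15%), 1 in lung normoxia (Ndufv3, against 8.85%) and 2 in muscle IH (against 19.2%). In the kidney they included Ndufb4 (amplitude 0.25), Ndufb9 (0.24), Ndufs6 (0.24) and Ndufv2 (0.24), and in the liver Ndufa11 (0.29), Ndufa8 (0.28), Ndufb10 (0.28) and the core subunits Ndufs3 (0.20), Ndufs7 (0.24), Ndufs8 (0.20) and Ndufv1 (0.19). Without the liver library that stood apart at 13:30, the liver count was 12 while 29.6% of all genes were called, a share close to that of the members. With no replicate term, the rhythm in kidney normoxia was called for 0 members without number 1, against 1.99% of all genes. It was called for 0 without number 2, against 6.01%, and for 10 without number 3, against 12.3%. By the test of the difference between treatments with no replicate term, 0 members and 0% of all genes were called in each of the 6 tissues. At an unadjusted p under 0.05 the limma fit gave 3 members in the kidney, 1 in the lung and 0 in the liver, muscle, heart and cerebellum, among 328, 289, 86, 580, 72 and 683 genes in all. With the replicate term it gave 23 members in the liver, where 3.82% of all genes had such a p, and 5 in the kidney (4.79%). Those counts were 28 in the liver without the library at 13:30 (9.62%) and 21 in the kidney without number 3 and with no replicate term (11.8%), with 0 members called by limma in each of these fits.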

How the data were processed

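RNA was extracted with Trizol, and libraries were made with a strand-specific kit from the RNA of 6 tissues. Reads were checked with FastQC 0.11.3 and quantified by the authors with Kallisto against mm10, and the deposited values are TPM per gene (Ensembl release 102). The authors' tests with DESeq2 on estimated counts, MetaCycle and CircaCompare were not used here. Read counts were not used, so the depth of a library, and with it the precision, is unknown. Each table column was mapped to its sample by its label, with 0 unmapped columns.

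Libraries were scaled by their median ratio to the gene-wise geometric mean, and log2 was taken after adding a pseudocount of 0.5, which understates the change of low genes. Genes that reached a mean of 1 TPM in a tissue were tested with limma 3.58.1 in R 4.3.3, with an intensity trend and treatment as the only term. p-values were adjusted by Benjamini-Hochberg over all genes tested, never over the members, and tests were 2-sided. Rhythm was an F test of a cosine and a sine of 24 hours. Fits were tested on simulated data with independent noise per library and planted log2 changes and amplitudes of 1. Smaller changes and a structure of replicate numbers were not simulated, so that test cannot show how the fits behave with them. Tables were made with Python 3.11.15 and pandas 2.3.3. Gene positions are from GENCODE mouse release 21 and promoters from RefSeq. Ndufb1, on the list of the distal membrane arm, was not analysed here.

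The named members are the nuclear core subunits (1 member is counted but not reported singly here), Ndufa4 and Ndufa4l2, members with a called 1.5-fold change, the 3 largest called rises and falls in each tissue, and the rhythmic members of largest amplitude. Ndufa5, Ndufc2, Ndufa7, Ndufb4, Ndufb2 and others were added after their values were seen. The members, lists and tests were chosen with earlier results of these data known. Alternatives were TPM as deposited, other pseudocounts and filters, terms for time point, genes detected and replicate number, a correction for length and GC content, a linear scale, a rank test and left-out replicates.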

Additional observations from a re-analysis of the deposited data

Results flagged for a closer look

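Members whose change after IH differed between the lung and another tissue were found in every pair by the test of the interaction in limma. At an adjusted p of 0.05 they numbered 36 in the comparison with the kidney (where 44.5% of all genes were lower in the lung), 34 with the liver (41.8%), 34 with the muscle (41.6%), 28 with the cerebellum (38%) and 18 with the heart (48%), with 0 of these higher in the lung. For the heart the share of members was close to that of all genes.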

How the results depend on the processing

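Over all libraries the 37 members lay below the median of all genes in the lung on both scales, but results moved with the replicate numbers in the lung too, where the member median within number 1 (-0.097) was close to that of all genes (-0.090), and depth is unknown. Causes were not tested where none is shown by how the alternative was made. Of 68 named results, alternatives gave the same call in 896 cases, a stronger one in 41, a weaker one in 104 and a reversed direction in 10. Only 29 of the 68 were called in the main fit. The cases of the same call include results that were not called in either fit, and only called results could be reversed. The 896 cases therefore do not measure how well the called changes held.

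In TPM as deposited, 16 members were called in the lung (0 past 1.5-fold, median -0.085), 1 in the kidney and 6 in the cerebellum, and the liver median was 0.089. Of all genes, 55% were then higher and 10.7% lower in the lung, 2.03% and 5.79% in the kidney, and 4.14% and 2.14% in the cerebellum. Rhythmic members were 2 in lung IH (against 10.9% of all genes), 4 in kidney normoxia (3.25%) and 0 in muscle IH (3.81%). Between tissues, 9 were called for the heart and cerebellum, 34 for the kidney and liver and 24 for the liver and lung, and the lung differed from the cerebellum in 18, the muscle in 13, the kidney in 12 and the heart in 10. Ndufs1 (0.15), Ndufs3 (0.12) and Ndufv1 (0.16) turned positive in the lung. With genes detected as a term, 15 members passed 1.5-fold in the lung, and 18 were called in the liver, 2 in the muscle and 0 in the heart. Of all genes, 12.6% were then higher and 16.7% lower in the liver, 6.57% and 5.71% in the muscle, and 0.884% and 1.13% in the heart. With a correction for length and GC content, chosen after seeing the data, 1 passed 1.5-fold in the lung, and 14 were called in the cerebellum, 9 in the heart, 8 in the kidney and 3 in the muscle. With the mean of each replicate number, also chosen after seeing the data, 19 were called in the lung and 0 in each other tissue, with 0 past 1.5-fold in the cerebellum. Without a filter 3 were called in the liver (against 3.52% of all genes higher and 3.75% lower) and 0 in the muscle (1.64% and 1.21%). With a time term 0 were called in the muscle (6.32% and 5.67%). On a linear scale 1 was rhythmic in lung normoxia, against 5.12% of all genes. A rank test called 1 there and 8 in kidney normoxia, among them Ndufb10 and not Ndufa6, and its share of all genes is not given. Without the kidney libraries of over 10% Gm19220, also chosen after seeing the data, 5 were rhythmic in kidney normoxia.

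With a replicate block, 18 members were called in the liver, 2 in the muscle and 5 in the cerebellum, and 1 was rhythmic in lung normoxia, 12 in liver IH, 11 in kidney normoxia and 2 in muscle IH. Of all genes, 14.9% were then higher and 17.2% lower in the liver, 6.93% and 6.7% in the muscle, and 8.94% and 4.59% in the cerebellum. Without liver IH replicate 2 at 13:30 the block, a fit added after seeing the data, gave 12 in liver IH. The block left the other counts within 1.5 times. Same-numbered libraries deviated together above a correlation of 0.1 in 16 of 24 pairs in the liver, 12 in the muscle, 8 in the heart, 7 in the cerebellum, 6 in the kidney and 5 in the lung, so not every pair passed in any tissue and the libraries were not treated as paired. In the muscle the means of each number did correlate above it (0.155, 0.375 and 0.65), and in the liver those of numbers 1 and 3 (0.669 and 0.487), so pairing there is a possibility that the labels do not settle.

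With replicate number 1 alone, 13 members were called in the lung (1 past 1.5-fold, median -0.10), 26 in the heart (5 past 1.5-fold, median -0.47), 15 in the liver (5 past 1.5-fold), 9 in the muscle (median 0.15) and 0 in the kidney, and 2 passed 1.5-fold in the cerebellum. Of all genes, 66.3% were called in either direction in the lung, 38% in the heart, 27.5% in the liver, 4.25% in the muscle and 0.813% in the kidney. Ndufa4 (0.026) and Ndufs3 (0.019) turned positive in the lung and Ndufa11 (0.080) in the muscle. With number 2 alone, 8 passed 1.5-fold in the lung, 1 in the liver and 3 in the cerebellum, 20 were called in the kidney (median 0.35) and 0 in the heart. The shares of all genes called were 19.4% in the kidney and 10.9% in the heart. With number 3 alone, 23 passed 1.5-fold in the lung, 0 were called in the liver (median 0.056), 0 in the heart, 0 in the cerebellum (0 past 1.5-fold, median 0.20), 8 in the kidney and 13 in the muscle, and Ndufs1 turned to 0.13 in the cerebellum, Ndufa11 to -0.10 and Ndufa7 to -0.045 in the kidney and Ndufb8 to -0.0098 in the liver. Of all genes, 0.00872% were called in the liver, 5.05% in the heart, 0% in the cerebellum, 28.3% in the kidney and 8.27% in the muscle.

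Leaving out 1 replicate number or library gave 0 to 16 members past 1.5-fold in the lung, 1 to 25 called in the heart, 0 to 23 in the liver (0 to 2 past 1.5-fold), 0 to 17 in the kidney, 0 to 6 in the cerebellum (0 to 3 past 1.5-fold) and 0 to 11 in the muscle. It gave 0 to 10 rhythmic members in kidney normoxia and 0 to 1 in muscle IH, 3 to 8 called for the kidney and liver, and 7 to 35 for the lung against the heart. The 25 in the heart were called without number 3, where 27.8% of all genes were higher and 17.2% lower. Shares of all genes past 1.5-fold are not given for the alternatives.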
